A study of Homo sapiens with 9 samples.

Results

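The genes described here encode the subunits of the mitochondrial respiratory chain complexes and of the ATP synthase, with the assembly factors named NDUFAF. They were chosen by symbol alone (NDUF subunits and NDUFAF factors, SDH, UQCR, CYC1, CYCS, COX4 to COX8 and ATP5 genes), without pseudogenes, and the brightest array feature stood for each gene. The choice found 28 of the 14884 genes that have a feature with exactly 1 symbol in the platform annotation. Of these, 17 of 18 listed genes belong to complex IV, 6 of 11 to complex III and cytochrome c, 3 of 19 to the ATP synthase (complex V) and 2 of 8 to the complex I assembly factors. Subunits of complex I (0 of 36 listed), complex II (0 of 4), the subunit c genes of the ATP synthase and the 13 listed genes of the mitochondrial genome were not analysed here, so the account is mainly one of complexes III and IV. One processed pseudogene, UQCRBP1, was left out by the choice.

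BT-549 is an established human breast cancer line of the triple-negative class. It was grown in RPMI medium with serum and transfected with a lipid reagent (Lipofectamine RNAiMAX) carrying a miR-150-5p mimic at 50 nM, an unrelated negative control small RNA at 50 nM, or no RNA (mock). The medium was changed at 24 h and total RNA was taken with Trizol at 72 h in every group. Each group had 3 arrays (Affymetrix Human Gene 2.0 ST, 1 ug of RNA labelled with the FlashTag biotin kit), and the cells carried no other treatment in the labels. The labels do not say whether the 3 samples of a group came from separate cultures, so the p-values reflect only how far these samples spread, and that spread may be technical. The line's own marker genes were read as follows. The 3 measured of 5 listed mesenchymal markers, VIM (8.47 to 9.38), FN1 (8.16 to 9.48) and CD44 (7.02 to 7.54), were above the median gene signal on all 9 arrays. ESR1 (1.96 to 2.37) and PGR (1.77 to 1.85), the hormone receptor genes, read below the lower quartile of gene signal (2.22) on average. They are the 2 measured of 3 listed receptor genes, and the other, ERBB2, was not analysed here. Of the 7 luminal epithelial markers measured, EPCAM (1.64 to 2.01), ESRP1 (1.73 to 2.04), CLDN4 (1.76 to 2.72) and KRT19 (2.37 to 3.02) had mean signals below the median gene signal (3.34), and CLDN3 (4.32 to 4.86), KRT8 (3.44 to 4.27) and KRT18 (7.31 to 7.75) did not. The 2 measured of 6 listed blood cell markers, CD14 (1.96 to 2.62) and LYZ (1.58 to 2.06), were below the median gene signal on all 9. These ranges say where a feature lies on the array's scale and set no gene's level against another's. The 9 arrays had medians of 2.43 to 2.48, and correlations across genes of 0.981 to 0.989 within groups and 0.977 to 0.986 between groups.

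The respiratory chain passes electrons from complexes I and II through coenzyme Q, complex III and cytochrome c to complex IV, which reduces oxygen. Complexes I, III and IV pump protons across the inner mitochondrial membrane, and the ATP synthase makes ATP as the protons return. Most subunits are encoded in the nucleus and imported, while the catalytic core of complex IV is encoded by mitochondrial DNA, so both genomes must be expressed for a working enzyme. The nuclear factors NRF1, GABP (an ETS protein) and YY1 are known regulators of many of these nuclear genes.

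The promoter windows of 4 complex IV genes are printed because their array values carry the largest differences below or because they share a motif with such a gene. RefSeq promoters (GRCh38.p14, 250 bases before to 50 bases after the start site) were held for 22 of the 28 genes, as 26 promoters. The letters GCGCATGC (the core of the NRF1 motif), CCGGAAG (the ETS core) and AAGATGGCG (a YY1 motif) were searched on both strands, and overlapping matches were all counted. The 250 bases before the start site are given 5′ to 3′ on the strand of the gene, with matches in capitals. COX6A1 lies at chr12:120437863-120438112, COX8A at chr11:63974370-63974619, COX5B at chr2:97645812-97646061 and COX7C at chr5:86617691-86617940, all on the plus strand.
COX6A1: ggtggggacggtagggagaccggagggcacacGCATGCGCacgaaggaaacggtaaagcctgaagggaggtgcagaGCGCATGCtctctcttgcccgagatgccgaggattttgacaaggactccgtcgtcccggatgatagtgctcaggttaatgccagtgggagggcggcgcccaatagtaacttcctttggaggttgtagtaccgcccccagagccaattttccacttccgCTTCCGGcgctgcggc
COX8A: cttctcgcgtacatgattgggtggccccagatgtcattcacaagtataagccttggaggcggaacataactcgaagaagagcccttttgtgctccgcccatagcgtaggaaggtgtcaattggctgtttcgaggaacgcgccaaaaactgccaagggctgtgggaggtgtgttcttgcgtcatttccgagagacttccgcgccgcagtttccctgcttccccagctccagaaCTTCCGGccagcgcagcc
COX5B: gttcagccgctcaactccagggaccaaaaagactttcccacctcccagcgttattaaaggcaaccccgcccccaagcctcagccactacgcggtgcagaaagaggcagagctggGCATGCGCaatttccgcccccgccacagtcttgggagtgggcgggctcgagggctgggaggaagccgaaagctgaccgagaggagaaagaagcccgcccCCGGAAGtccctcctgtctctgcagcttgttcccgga
COX7C: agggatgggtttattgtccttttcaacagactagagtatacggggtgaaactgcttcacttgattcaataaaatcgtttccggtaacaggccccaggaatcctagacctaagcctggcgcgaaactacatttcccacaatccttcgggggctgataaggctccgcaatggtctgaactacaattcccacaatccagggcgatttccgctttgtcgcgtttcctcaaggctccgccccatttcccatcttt
Positions are counted from the start site, with the base just before it at -1. COX6A1 holds the NRF1 core at -218 to -211 on the opposite strand and at -174 to -167 on its own, and the ETS core at -16 to -10. COX5B has the NRF1 core at -136 to -129 and the ETS core at -37 to -31, with a further ETS core from -5 to 2 that runs past the printed window and is left in lower case. COX8A has the ETS core alone, at -18 to -12, and the COX7C window has none of the 3. The NRF1 core was in 7.69% of the 26 promoters (COX5B and COX6A1) and in 3.05% of all 35116 promoters in the table. The ETS core was in 34.6% of them, from 8 genes (ATP5MK, COX4I1, COX5B, COX6A1, COX6B1, COX8A, NDUFAF8 and UQCRH), and in 10.3% of all promoters. The YY1 motif was in 11.5% (NDUFAF8 and UQCRC1) against 1.75% of all. These are matches of letters in a window and no factor's binding was measured. Genes with and without a match appear among those with the largest differences: COX6A1 and COX8A have one, COX7C has none.

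Signals are log2 values made by RMA, a method that corrects the background, equalises the distributions of the arrays and sums the probes of each feature, so a difference of 1 is a doubling. Signals of different features depend on their probes and are not compared as levels. The average signal of 23 of the 28 genes was at or above that of the median gene (3.34), and the 5 below it were all tissue-restricted isoforms of complex IV. Bulk RNA of a culture cannot tell fewer cells of a kind apart from less RNA per cell.

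No respiratory chain gene passed the test in any comparison (limma, Benjamini-Hochberg adjusted p under 0.05 over all 14884 genes). For mimic against negative control 0 of 28 were called, against 3.18% of all genes. For mimic against mock it was 0 of 28, against 3.90%, and for negative control against mock 0 of 28, against 0.645%. At an unadjusted p under 0.05, limma gave 1 gene (NDUFAF7) against a background of 16.0%, 2 genes (COX6A1 and COX7C) against 17.5%, and 2 genes (NDUFAF7 and COX8A) against 11.0%, in the same order. Among the 7442 genes at or above the median signal, which resemble most of these genes in brightness, the unadjusted shares were 25.7%, 28.5% and 17.1%. The shares called at the adjusted threshold were 5.85%, 7.2% and 1.24% there. The comparisons share arrays: each group enters 2 of the 3, so their results are given side by side and not set against each other.

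**Figure D1:**
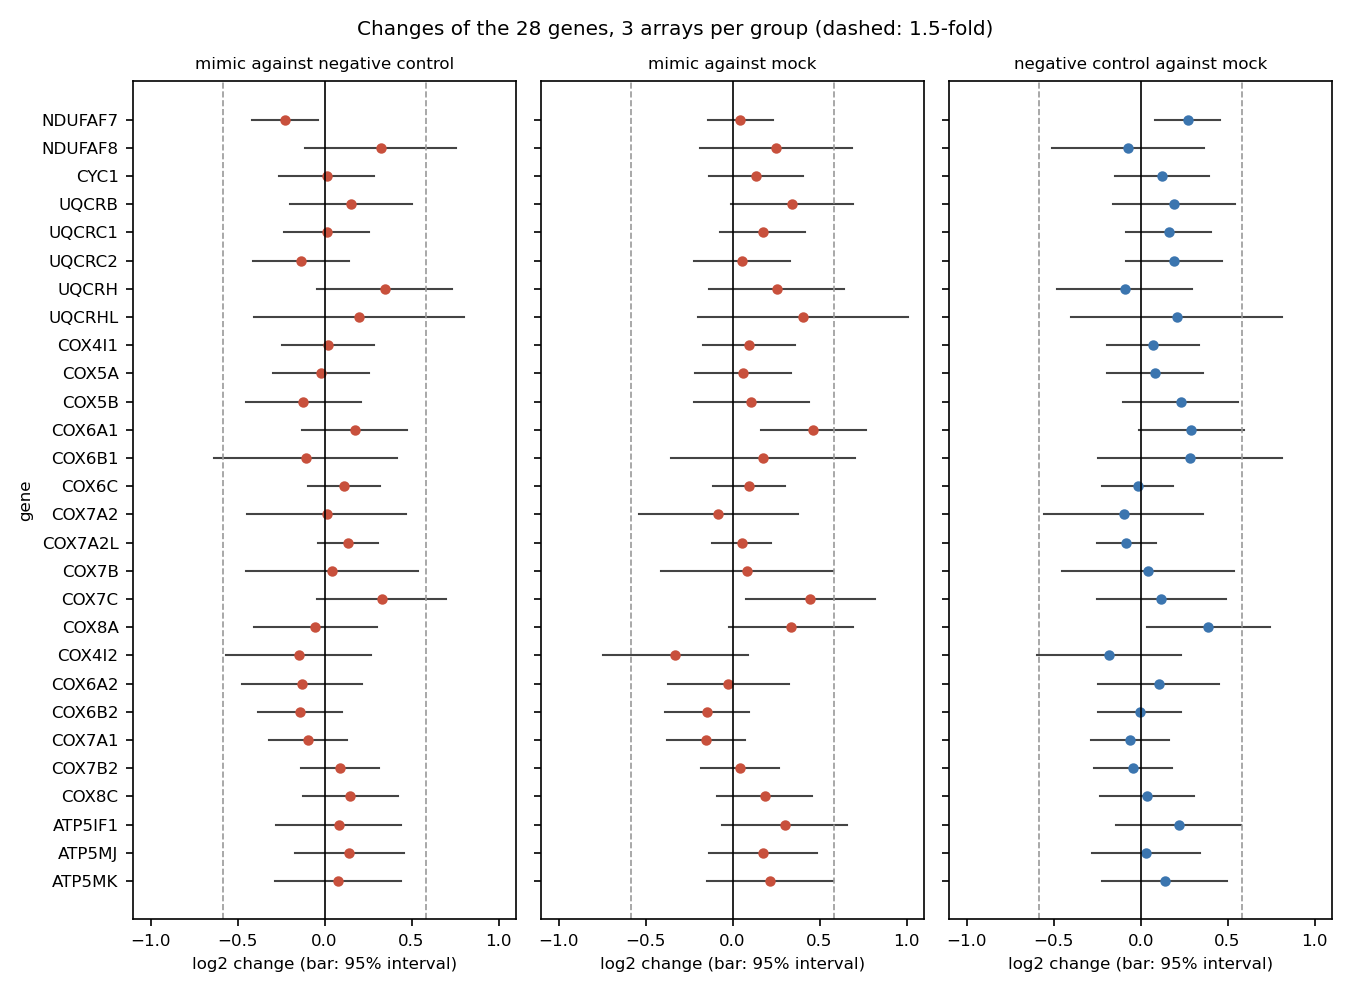
Log2 difference of each of the 28 genes (rows, grouped by complex) in the 3 comparisons, with points for the limma estimate and bars for its 95% confidence interval. No gene is past the adjusted threshold, and the estimates run from -0.23 to 0.35 for mimic against negative control, from -0.33 to 0.46 for mimic against mock and from -0.18 to 0.39 for negative control against mock.

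The estimates were small. The median of the 28 was 0.03 for mimic against negative control (all genes -0.0044, genes at or above the median signal 0.046), 0.12 for mimic against mock (all genes 0.000345, brighter genes 0.057) and 0.09 for negative control against mock (all genes 0.0076, brighter genes 0.011). For mimic against negative control 18 of 28 estimates were above 0, against 48.7% of all genes; when the deposited values were quantile normalized a second time, the count was 11 and the median -0.03. For mimic against mock 23 of 28 were above 0, against 50.2%, and for negative control against mock 19 of 28, against 52.2%. Among the genes at or above the median signal, 58.1%, 59.3% and 52.2% of estimates were above 0, in the same order. The 95% confidence interval lay within 1.5-fold in either direction (0.585 on the log2 scale) for 23, 18 and 23 of the 28 genes. For the other 5, 10 and 5 it reached beyond, so a difference of that size is not excluded for them. Standard errors ran from 0.076 to 0.27 with a median of 0.14, and the median over all genes was 0.12.

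By complex, the 3 ATP synthase genes had medians of 0.08, 0.21 and 0.14 for mimic against negative control, mimic against mock and negative control against mock, with all 3 estimates above 0 each time. The 6 complex III genes had medians of 0.08, 0.21 and 0.18, with 5, 6 and 5 estimates above 0. The 17 complex IV genes had medians of 0.01, 0.08 and 0.04, with 9, 12 and 10 above 0. None of these differences came with a called gene.

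**Figure D2:**
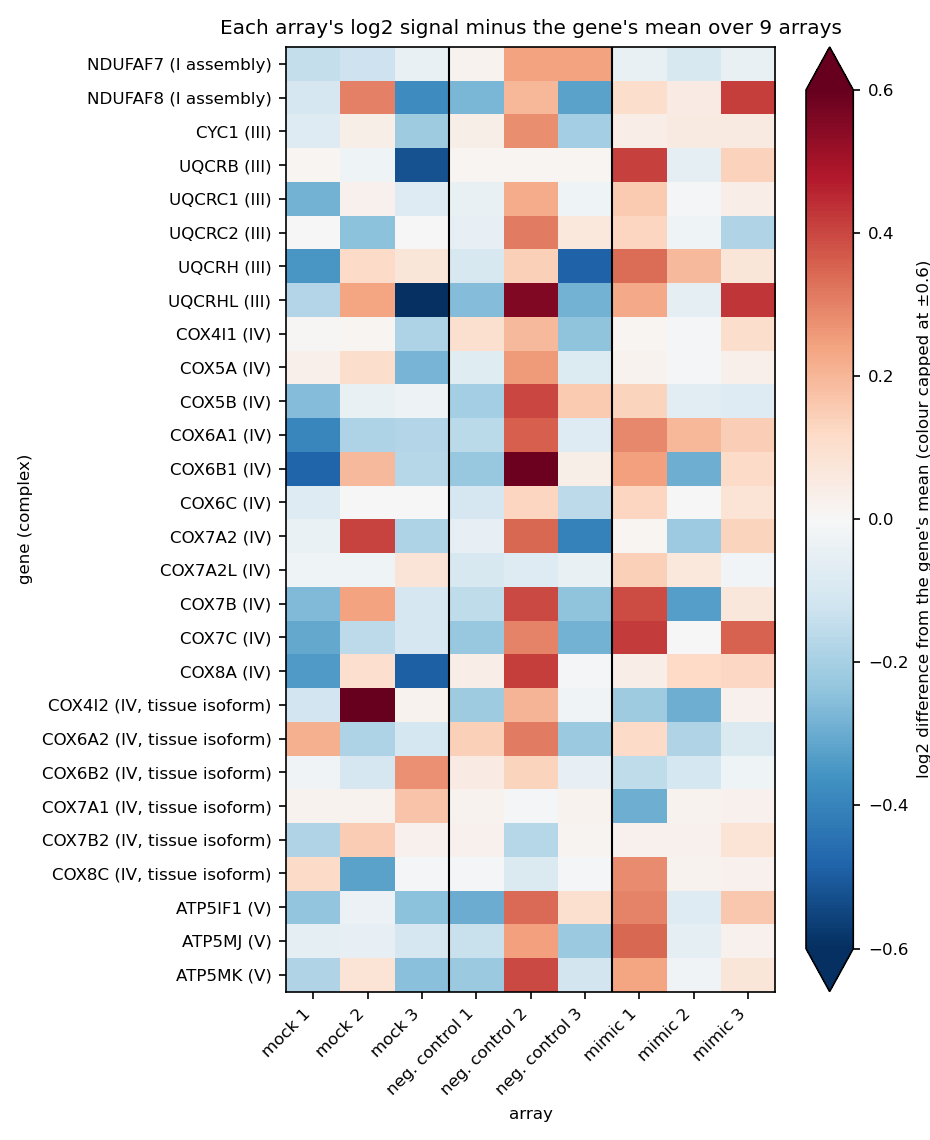
Signal of each of the 28 genes on each of the 9 arrays, as log2 deviation from the gene's own mean over the arrays, with genes in rows grouped by complex and arrays in columns grouped by mock, negative control and mimic. The column of negative control 2 stands above the others in most rows, with a median of 0.25.

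NDUFAF7, a methyltransferase that acts on a subunit of complex I during its assembly, read 5.11, 5.13 and 5.21 in mock, 5.27, 5.49 and 5.49 in the negative control and 5.21, 5.16 and 5.21 in the mimic arrays. The negative control arrays stood above all others, and the mimic and mock arrays overlapped. The difference was -0.23 ± 0.084 (SE, n = 3 per group) for mimic against negative control (limma adjusted p = 0.215), 0.27 ± 0.084 for negative control against mock (limma adjusted p = 0.24) and 0.04 ± 0.084 for mimic against mock (limma adjusted p = 0.862). Its smaller standard error gave it the lowest p of the 28 genes in the 2 comparisons with the negative control. NDUFAF8, a partner of another complex I assembly factor, read 6.08, 6.48 and 5.80 in mock, 5.90, 6.38 and 5.85 in the negative control and 6.28, 6.23 and 6.59 in mimic arrays. The groups overlapped throughout. Its difference was 0.32 ± 0.19 for mimic against negative control (limma adjusted p = 0.48) and 0.25 ± 0.19 for mimic against mock (limma adjusted p = 0.583).

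Complex III takes electrons from coenzyme Q and hands them to cytochrome c. UQCRC1, a core protein of the complex, read 6.95, 7.26 and 7.16 in mock, 7.19, 7.46 and 7.21 in the negative control and 7.39, 7.22 and 7.27 in mimic arrays. UQCRC2, the other core protein, read 9.31, 9.06 and 9.30 in mock, 9.25, 9.61 and 9.37 in the negative control and 9.43, 9.27 and 9.12 in mimic arrays. The groups of both genes overlapped, and their estimates for mimic against negative control were 0.01 ± 0.11 and -0.14 ± 0.12. CYC1, cytochrome c1, which carries the heme that reduces cytochrome c, read 8.02, 8.14 and 7.89 in mock, 8.14, 8.38 and 7.90 in the negative control and 8.14, 8.15 and 8.16 in mimic arrays. The mimic arrays lay close together and just above the mock arrays, 8.141 against a highest mock value of 8.135, while the negative control arrays spread around them. The difference from mock was 0.13 ± 0.12 (limma adjusted p = 0.646).

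UQCRH, the hinge protein of complex III, read 4.96, 5.43 and 5.38 in mock, 5.21, 5.45 and 4.82 in the negative control and 5.65, 5.50 and 5.38 in mimic arrays. Its difference of 0.35 ± 0.17 for mimic against negative control was the largest of the 28 genes in that comparison (limma adjusted p = 0.376), and the arrays overlapped. UQCRHL is a near-identical intronless copy of UQCRH, and which of the pair each feature reads is uncertain. The UQCRHL feature read 7.68, 8.09 and 7.18 in mock, 7.59, 8.41 and 7.57 in the negative control and 8.08, 7.80 and 8.28 in mimic arrays. With a standard error of 0.27 it was the least precise of the 28, and its 0.40 for mimic against mock had a 95% interval from -0.20 to 1.01. UQCRB, which takes part in binding coenzyme Q, read 4.57, 4.53 and 4.03 in mock, 4.57 on all 3 negative control arrays and 4.96, 4.50 and 4.69 in mimic arrays. The same value, 4.565, stands for 4 arrays to 4 decimals, so its spread in the negative control reads 0. Values shared by 3 or more arrays to that precision occurred in 4 of the 28 genes and in 33.4% of all genes. The difference from mock was 0.34 ± 0.16 (limma adjusted p = 0.294).

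**Figure D3:**
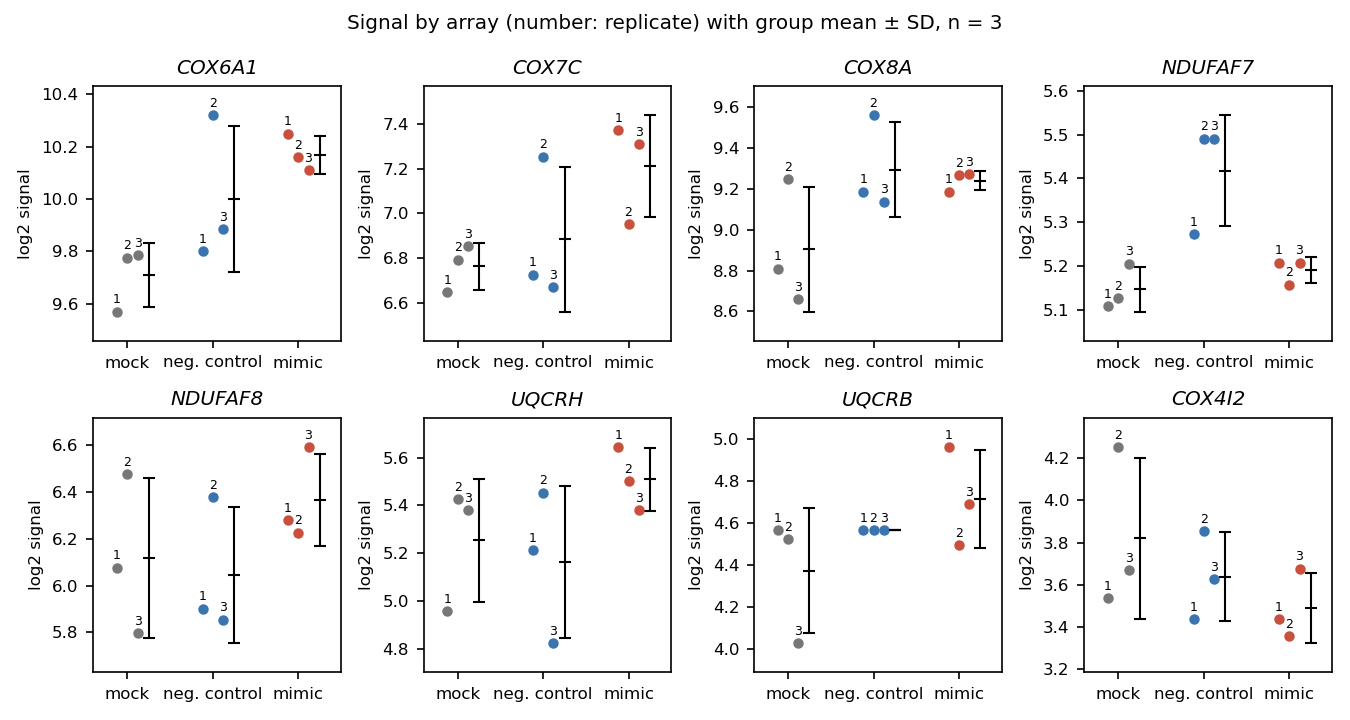
Log2 signal on each array (points, numbered by replicate) of 8 respiratory chain genes in mock, negative control and mimic, with the group mean ± SD (black bars, n = 3). The mimic arrays of COX6A1 lie between 10.11 and 10.25, above the mock arrays at 9.57 to 9.79, while negative control 2 at 10.32 is above them.

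Complex IV, cytochrome c oxidase, had the largest differences from mock. COX6A1, the widespread isoform of subunit 6A, read 9.57, 9.78 and 9.79 in mock, 9.80, 10.32 and 9.89 in the negative control and 10.25, 10.16 and 10.11 in mimic arrays. All 3 mimic arrays and all 3 negative control arrays were above all 3 mock arrays, and the mimic and negative control arrays overlapped. The difference from mock was 0.46 ± 0.13 (1.38-fold, 95% interval 0.16 to 0.76, limma adjusted p = 0.0931), the lowest adjusted p of the 28 genes in any comparison. Without negative control 2, which enters only through the shared spread, limma's adjusted p was 0.0267 at the same estimate, and with limma's array weights it was 0.0399 at 0.49. The negative control also read above mock, by 0.29 ± 0.13 (limma adjusted p = 0.47), and the mimic read above the negative control by 0.17 ± 0.13 (limma adjusted p = 0.6).

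COX7C, a small membrane subunit, read 6.65, 6.79 and 6.85 in mock, 6.73, 7.25 and 6.67 in the negative control and 7.37, 6.95 and 7.31 in mimic arrays. All mimic arrays were above all mock arrays, and negative control 2 was above mimic 2. The difference was 0.45 ± 0.17 against mock (95% interval 0.08 to 0.82, limma adjusted p = 0.19) and 0.33 ± 0.17 against the negative control (limma adjusted p = 0.381). COX8A, the ubiquitous isoform of subunit 8, read 8.81, 9.25 and 8.66 in mock, 9.19, 9.56 and 9.14 in the negative control and 9.19, 9.27 and 9.27 in mimic arrays. Mock 2 was level with the treated arrays and the other mock arrays were below them, so the groups overlapped. Both small RNA groups read above mock, the negative control by 0.39 ± 0.16 (limma adjusted p = 0.409) and the mimic by 0.34 ± 0.16 (limma adjusted p = 0.315), and they differed from each other by -0.05 ± 0.16. With mock 2 and negative control 2 left out together, COX8A passed the test for mimic against mock (0.51, limma adjusted p = 0.0295), and so did COX6A1 (0.50, limma adjusted p = 0.0467).

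Few genes had the 3 arrays of a group wholly above or wholly below those of the other group. For mimic against negative control, 2 of 28 lay wholly higher (COX7A2L and COX8C) against 10.3% of all genes, and 1 wholly lower (NDUFAF7) against 8.30%. For mimic against mock, 3 lay wholly higher (COX6A1, COX7C and CYC1) against 11.7%, and 0 wholly lower against 8.52%. For negative control against mock, 2 lay wholly higher (COX6A1 and NDUFAF7) against 6.21%, and 1 wholly lower (COX7A2L) against 5.78%. Shares of 1 to 3 in 28 are near or below the background of all genes. Among the genes at or above the median signal, 17.7%, 19.8% and 8.49% lay wholly higher in the same order of comparisons. Wholly lower there were 10.3%, 10.8% and 8.14%.

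The other widespread complex IV subunits had no called difference either. COX4I1, the widespread isoform of subunit 4, read 8.99, 8.99 and 8.80 in mock, 9.08, 9.18 and 8.74 in the negative control and 8.99, 8.97 and 9.09 in mimic arrays. COX5A read 8.39, 8.47 and 8.08 in mock, 8.29, 8.62 and 8.28 in the negative control and 8.38, 8.35 and 8.39 in mimic arrays. For both genes the mimic arrays fell inside the range of the negative control, with differences of 0.02 ± 0.12 and -0.02 ± 0.12. COX6B1, a subunit on the intermembrane space side, read 5.37, 6.05 and 5.68 in mock, 5.62, 6.44 and 5.89 in the negative control and 6.10, 5.56 and 5.97 in mimic arrays. Its spread was wide in every group, and the difference of the negative control from mock, 0.28 ± 0.24, was the third largest in complex IV (limma adjusted p = 0.737). COX5B, COX6C, COX7A2 and COX7B had estimates from -0.12 (COX5B) to 0.11 (COX6C) for mimic against negative control, and from -0.08 (COX7A2) to 0.11 (COX5B) for mimic against mock. COX7A2L, a relative of the 7A subunits that joins complexes III and IV into supercomplexes, read 3.37, 3.37 and 3.47 in mock, 3.30, 3.32 and 3.35 in the negative control and 3.54, 3.46 and 3.38 in mimic arrays. Its negative control arrays were the lowest and its arrays were close together, with a difference of 0.14 ± 0.076 for mimic against negative control (limma adjusted p = 0.445).

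The tissue-restricted isoforms of complex IV had no called difference. COX4I2, the isoform of subunit 4 known from lung and from low oxygen, read 3.54, 4.25 and 3.67 in mock, 3.44, 3.85 and 3.63 in the negative control and 3.44, 3.36 and 3.68 in mimic arrays. Mock 2 was the highest array, and the groups overlapped. Its difference of -0.33 ± 0.19 for mimic against mock was the lowest estimate of the 28 (limma adjusted p = 0.411). The heart and muscle isoforms COX6A2 (group means 2.35, 2.46 and 2.33 in mock, negative control and mimic) and COX7A1 (2.95, 2.89 and 2.80) and the testis isoforms COX6B2 (2.15, 2.15 and 2.01), COX7B2 (1.67, 1.63 and 1.72) and COX8C (1.88, 1.91 and 2.06) all lay below the median gene signal. Their differences between mimic and negative control ran from -0.14 (COX6B2) to 0.15 (COX8C).

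The ATP synthase was represented by an inhibitor and 2 accessory membrane subunits. ATP5IF1, the inhibitor that blocks the reverse, ATP-consuming reaction when the membrane potential falls, read 4.78, 4.98 and 4.77 in mock, 4.72, 5.36 and 5.12 in the negative control and 5.32, 4.94 and 5.18 in mimic arrays. Its estimate was 0.30 ± 0.16 for mimic against mock (limma adjusted p = 0.378) and 0.08 ± 0.16 for mimic against negative control (limma adjusted p = 0.866). Mimic 2 was below the highest mock array, so the groups overlapped. ATP5MK read 5.27, 5.53 and 5.20 in mock, 5.23, 5.85 and 5.34 in the negative control and 5.69, 5.43 and 5.53 in mimic arrays. ATP5MJ read 4.31, 4.32 and 4.27 in mock, 4.23, 4.61 and 4.14 in the negative control and 4.71, 4.31 and 4.39 in mimic arrays. Both belong to the membrane part of the enzyme, and in both the 3 groups overlapped. Their estimates against mock were 0.21 ± 0.16 and 0.17 ± 0.14 for the mimic, with limma adjusted p-values of 0.568 and 0.593.

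Many of the 28 genes were highest on the same array of a group, most often on negative control 2. The median deviation from each gene's own mean was -0.11, 0.016 and -0.10 on the mock arrays, -0.08, 0.25 and -0.06 on the negative control arrays and 0.13, -0.016 and 0.07 on the mimic arrays. Negative control 2 was the highest array of its group in 23 of the 28 genes, against 33.4% of all genes. Mock 2 was the highest of its group in 16 (27.2% of all genes), mimic 1 in 16 (32.5%), and mimic 2 was the lowest of its group in 18 (31.5%). Over the genes at or above the median signal the same medians stayed between -0.043 and 0.035. The 71 mitochondrial ribosomal protein genes had 0.25 on negative control 2 and 0.17 on mimic 1, and the 53 cytosolic ribosomal protein genes 0.15 and 0.22. The mean signal of 23 small nucleolar and Cajal body RNAs was 5.62, 6.78 and 5.64 on the mock arrays, 5.91, 6.83 and 5.87 on the negative control arrays and 6.43, 5.95 and 6.75 on the mimic arrays. Within groups it was highest on mock 2 and negative control 2, as for these genes, and lowest of the mimic arrays on mimic 2. The part of this small nucleolar signal in the differences of these genes was not tested. The signal was added as a covariate to the limma fit only after seeing the data. The median was then -0.015 for mimic against negative control, 0.062 for mimic against mock and 0.065 for negative control against mock. Without the covariate these medians were 0.03, 0.12 and 0.09. COX4I2 passed the test for mimic against mock with it (-0.50, limma adjusted p = 0.03).

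**Figure D4:**
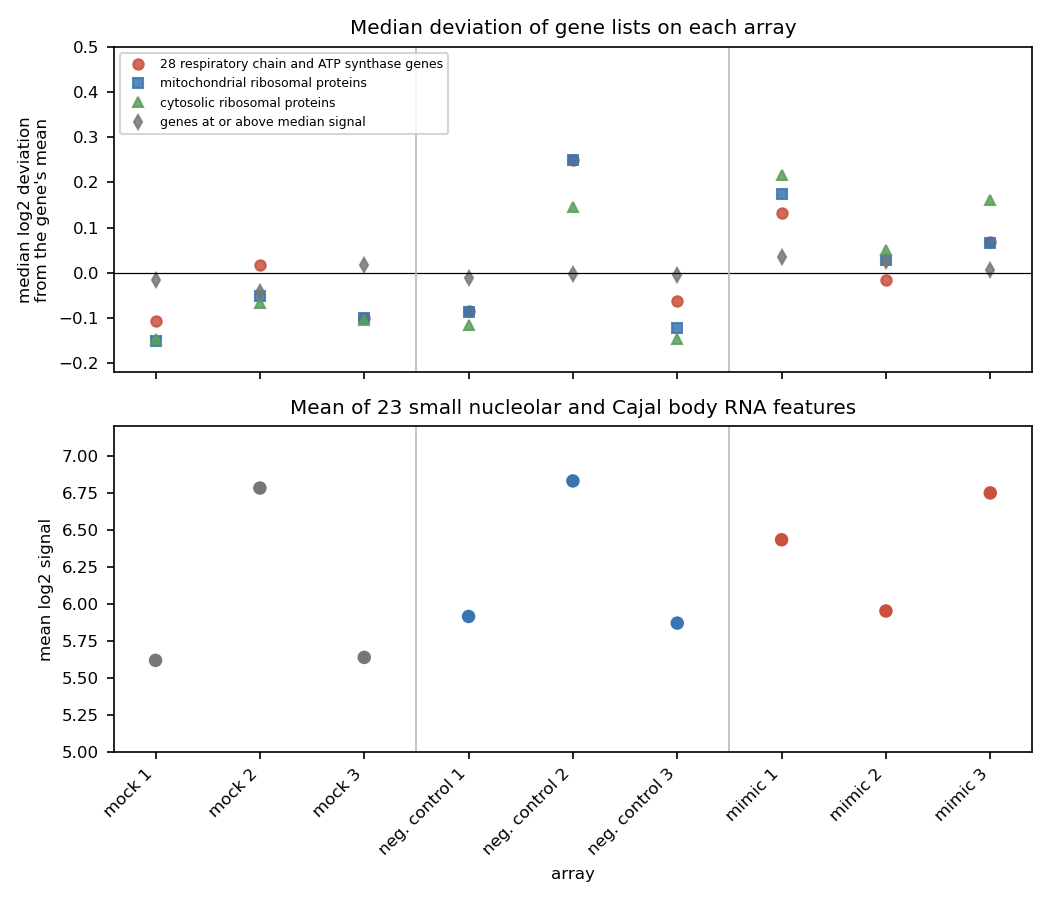
Top, median log2 deviation from each gene's own mean over 9 arrays, by array, of the 28 respiratory chain genes, mitochondrial and cytosolic ribosomal protein genes and all genes at or above the median signal; bottom, mean log2 signal of 23 small nucleolar and Cajal body RNA features on the same arrays. The respiratory chain genes are highest on negative control 2, at 0.25, while the brighter genes stay between -0.043 and 0.035.

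The direction of the small median difference between mimic and negative control depended on which negative control array was left out. Without negative control 2 the median of the 28 genes was 0.13 with 22 above 0. Without negative control 3 it was -0.052 with 13 above 0, and without negative control 1 it was -0.013 with 14. For mimic against mock the median stayed between 0.064 and 0.18 as each array was left out. For negative control against mock it ran from -0.024 (without negative control 2) to 0.19.

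Genes that serve the respiratory chain but are not part of it were read from lists of assembly, expression, substrate and import factors. Of 39 further assembly factors measured of 47 listed, 1 rose in mimic against negative control (LYRM7) and 1 in mimic against mock (ATPAF1), and 0 fell, beside 3.18% and 3.90% of all genes called in those comparisons, so these shares are not above the background. LYRM7, the chaperone of the iron-sulfur protein of complex III, read 5.57, 5.50 and 5.68 in mock, 5.49, 5.22 and 5.20 in the negative control and 5.92, 5.84 and 6.09 in mimic arrays. The mimic arrays were above all others and the negative control arrays were below all mock arrays. LYRM7 rose by 0.65 ± 0.11 (1.56-fold) against the negative control (limma adjusted p = 0.0128) and its difference from mock was 0.36 ± 0.11 (limma adjusted p = 0.0956). The call was lost without negative control 3 or mimic 3 (limma adjusted p up to 0.0547) and with mock 2 and negative control 2 left out together (0.0501). It was also lost with the replicate number as a block in the 6 arrays compared (limma adjusted p = 0.139). Least squares without moderation gave an adjusted p of 0.0715. ATPAF1, which helps assemble the catalytic part of the ATP synthase, read 4.86, 4.68 and 4.85 in mock, 5.15 on all 3 negative control arrays and 5.56, 5.30 and 5.25 in mimic arrays. The groups did not overlap and stood in the order mock, negative control, mimic. Since all 3 negative control arrays read 5.148, that group added little or no spread to the standard error. ATPAF1 rose by 0.57 ± 0.099 against mock (limma adjusted p = 0.0159), and the call was lost without mimic 1 (0.0501) and with mock 2 and negative control 2 left out together (0.0578). With only the 6 arrays compared the call was also lost (limma adjusted p = 0.0531), and with the replicate number as a block in them (0.124). Least squares without moderation lost it too (adjusted p = 0.0746). The difference of ATPAF1 from the negative control was 0.22 ± 0.099 (limma adjusted p = 0.314).

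Among 9 measured genes of mitochondrial genome upkeep and expression, of 25 listed, 1 rose in mimic against each control, beside 3.18% (negative control) and 3.90% (mock) of all genes called. TWNK, the helicase that unwinds mitochondrial DNA for replication, read 5.47, 5.81 and 5.60 in mock, 5.31, 5.50 and 5.58 in the negative control and 6.04, 6.08 and 6.13 in mimic arrays. The mimic arrays were above all 6 others. TWNK rose by 0.62 ± 0.11 (1.54-fold) against the negative control (limma adjusted p = 0.0152) and by 0.46 ± 0.11 against mock (limma adjusted p = 0.0472). The former call was lost in 4 of the 9 fits without 1 array, namely negative control 1 and each mimic array (limma adjusted p up to 0.0635), and the latter in 8 of 9, all but mock 2 (up to 0.154). The call against mock was also lost with the replicate block (limma adjusted p = 0.0553), a second quantile normalization (0.37, adjusted p = 0.111) and a trend with robust variance (0.0652). The block pairs arrays of all groups by number, a pairing that the labels do not state. Transcripts of the mitochondrial genome were not analysed here.

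The import machinery brings nuclear-encoded subunits into the mitochondrion. Of its 20 measured genes, of 21 listed, 3 rose in mimic against negative control and 2 in mimic against mock, 0 fell, and 0 changed between negative control and mock, beside 3.18%, 3.90% and 0.645% of all genes called. The medians of the 20 were 0.20, 0.31 and 0.15, with 17, 19 and 14 estimates above 0, beside 48.7%, 50.2% and 52.2% of all genes. All 20 had mean signals above that of the median gene. Among the genes at or above the median signal, 5.85%, 7.2% and 1.24% were called. Of those brighter genes 58.1%, 59.3% and 52.2% had estimates above 0. TOMM40, the channel of the outer membrane, read 6.80, 6.79 and 6.92 in mock, 6.98, 6.98 and 7.04 in the negative control and 7.53, 7.39 and 7.40 in mimic arrays. The mimic arrays were above all others. TOMM40 rose by 0.44 ± 0.078 against the negative control (limma adjusted p = 0.0173) and by 0.60 ± 0.078 against mock (limma adjusted p = 0.00425). The call against mock held in all 9 fits without 1 array (limma adjusted p up to 0.0241), and that against the negative control was lost without negative control 1, mimic 1 or mimic 3 (up to 0.0695). The dimmer feature of TOMM40 differed by 0.09 ± 0.34 and 0.04 ± 0.34, and the mean of its features gave 0.27 and 0.32 with limma adjusted p-values of 0.501 and 0.363.

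TIMM50, the receptor of the inner membrane translocase, read 6.56, 6.47 and 6.80 in mock, 6.69, 6.86 and 6.69 in the negative control and 7.35, 7.24 and 7.15 in mimic arrays. TIMM50 rose by 0.64 ± 0.10 (1.56-fold) against mock (limma adjusted p = 0.0127) and by 0.50 ± 0.10 against the negative control (limma adjusted p = 0.0354). The mimic arrays were above all others in both comparisons. Without 1 array, the call against mock was lost for mock 1 and mimic 1 (limma adjusted p up to 0.0586) and that against the negative control for 6 of 9 arrays, namely mock 1, negative control 1 and 3 and each mimic array (up to 0.127). TOMM70, an outer membrane receptor, read 7.09, 7.24 and 7.18 in mock, 7.03, 7.13 and 7.16 in the negative control and 7.55, 7.40 and 7.57 in mimic arrays. TOMM70 rose by 0.40 ± 0.083 against the negative control (limma adjusted p = 0.0336) and differed from mock by 0.34 ± 0.083 (limma adjusted p = 0.0585). The difference from mock passed only with centring on array medians (limma adjusted p = 0.0466) and array weights (0.0302). The mimic arrays were again the highest. The call against the negative control was lost without 6 of 9 arrays, namely mock 1, each negative control array, mimic 1 and mimic 3 (up to 0.117). It was also lost with a second quantile normalization (0.32, limma adjusted p = 0.096) and a trend with robust variance (0.0537). With the replicate number as a block, limma's adjusted p against the negative control was 0.0507 for TOMM40, 0.0866 for TIMM50 and 0.0765 for TOMM70. That block also pairs the mimic arrays by number. Their deviations correlated at -0.11, -0.29 and -0.07 with those of the same-numbered negative control arrays. Correlations between differently numbered arrays were not taken, so these values cannot decide whether that pairing holds.

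**Figure D5:**
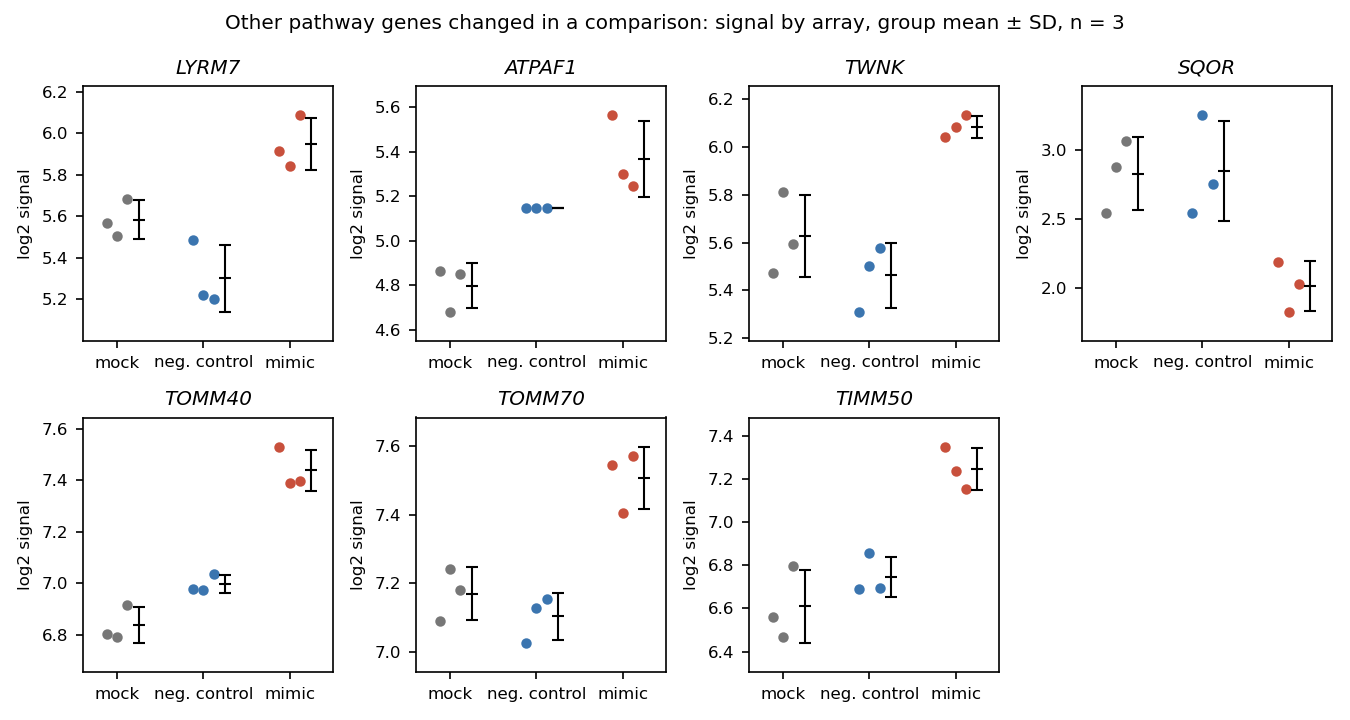
Log2 signal on each array (points) of the 7 called genes that assemble, maintain or feed the respiratory chain, in mock, negative control and mimic, with the group mean ± SD (black bars, n = 3). The mimic arrays of TOMM40 lie at 7.39 to 7.53 above mock and negative control arrays at 6.79 to 7.04, and those of SQOR at 1.83 to 2.19 lie below arrays at 2.54 to 3.25.

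Genes that bring electrons and substrates in showed 1 call. Of 10 measured genes of coenzyme Q synthesis and electron entry, of 19 listed, 1 fell in mimic against mock, beside 3.90% of all genes called there. SQOR, which passes electrons from sulfide to coenzyme Q, read 2.54, 2.88 and 3.07 in mock, 2.54, 3.25 and 2.76 in the negative control and 2.19, 1.83 and 2.03 in mimic arrays. All mimic arrays were below all others, at low signals near the bottom of the scale. SQOR fell by 0.81 ± 0.19 against mock (limma adjusted p = 0.0499), a call lost without any of 8 of the 9 arrays, all but negative control 2 (up to 0.148), and with the replicate block (0.0814). Here too the block paired the mimic arrays by number. The difference of SQOR from the negative control was -0.83 ± 0.19 (limma adjusted p = 0.051). That difference passed only with some alternatives. They were the lower quartile signal filter (limma adjusted p = 0.035), array weights (0.0497), a trend with robust variance (0.0449) and the small nucleolar RNA covariate (0.0243). None of the 13 measured genes of the citrate cycle and pyruvate entry (25 listed), the 9 of glycolysis (22 listed) or the 3 carriers and uncoupling proteins (12 listed) was called. Their medians were 0.11, -0.07 and 0.08 for mimic against negative control, 0.23, 0.10 and 0.13 for mimic against mock and 0.10, 0.18 and 0.05 for negative control against mock.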

How the data were processed

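Whole-transcript arrays of 9 samples of BT-549 cells were analysed. The deposited values are log2 signals that the authors made with RMA, per the submitters' processing notes; the sources used here do not give its version, software or array definition. RMA equalises the arrays' distributions, so a shift of all genes cannot be seen. Groups came from the sample labels. Features with exactly 1 symbol in the platform annotation (16098 of 53617) were kept, and the brightest over all 9 arrays stood for a gene, with no filter on signal. Promoters came from RefSeq (GRCh38.p14), where gene IDs were matched for 22 of the 28 genes and 6 had no promoter.

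A linear model (lmFit and eBayes of limma 3.58.1, under R 4.3.3) was fitted to all 9 arrays with 1 mean per group, two-sided, with 6 residual and 9.60 total degrees of freedom. P-values were adjusted by Benjamini and Hochberg over 14884 genes. The script was tested on simulated data. The number of arrays limits the precision.

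The genes and lists were chosen with earlier results of these data known. Genes named are those called, the 3 with the largest difference per complex and comparison, the 3 next in adjusted p, the tissue-restricted isoforms, and up to 4 called genes per other list, with the remaining members as context; marker lists are given as ranges. Same-numbered negative control and mock arrays had deviations from group means that correlated across genes at 0.15, 0.23 and 0.15. The labels state no pairing, and correlations between differently numbered arrays were not taken. Whether the numbers pair the arrays is therefore not known. The main fit used no pairing, so its standard errors and p-values leave out any that exists. Mimic arrays had -0.05, -0.19 and -0.18 with mock and -0.11, -0.29 and -0.07 with the negative control. The replicate block paired the arrays of all groups by number, and these correlations cannot decide whether that pairing holds. Alternatives were a second quantile normalization, centring, signal filters, the mean of features, array weights, other variance models and thresholds, the replicate block, leaving out arrays and, added after seeing the data, a small nucleolar RNA covariate and the block on 6 arrays.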

Additional observations from a re-analysis of the deposited data

How the results depend on the processing

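For mimic against negative control and negative control against mock, none of the 28 respiratory chain genes passed the test in any of the 22 alternative fits of each. For mimic against mock the count was 0 in 18 of 22, and 0 in every comparison at an adjusted p under 0.01 or with a minimum of 1.5-fold. It was 1 with array weights (COX6A1), 1 with the small nucleolar RNA covariate (COX4I2), 2 with mock 2 and negative control 2 left out together (COX6A1 and COX8A), and 0 to 1 as each array was left out (1 without negative control 2). Median differences ran from -0.052 to 0.129, from 0.062 to 0.175 and from -0.024 to 0.193 for mimic against negative control, mimic against mock and negative control against mock. Of 608 estimates of single genes in each comparison, 39, 20 and 37 changed sign. Many of the 608 could not change. Signal filters, other variance models, the block and leaving out arrays of the group not compared keep each estimate as it was. None of the 28 genes was called in the main fit, so no called value could change sign. With the replicate block the count of these genes stayed 0 in each comparison, and the genes called overall went from 473, 580 and 96 to 292, 346 and 61; with the block on the 6 arrays compared, chosen after seeing the data, they were 0, 5 and 0. Over all alternatives the overall counts ran from 0 to 671, from 5 to 904 and from 0 to 153. The 10 calls of genes that serve the chain were each lost in 2 to 8 of the 12 or 13 alternatives that leave out no single array: 3 for LYRM7, 4 for ATPAF1, 2 and 7 for TWNK, 4 and 2 for TOMM40, 3 and 2 for TIMM50 (against negative control and mock where 2 are given), 7 for TOMM70 and 8 for SQOR. All 10 were lost with the block on the 6 arrays compared, and all but those of TOMM40 with least squares without moderation. The cause of these changes was not tested. Dim isoforms near the bottom of the signal scale would show little of a difference.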

Other observations

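COX6A1 was the only one of the 28 genes with a further feature, which read 1.45 to 1.99 on the 9 arrays and differed by 0.08 ± 0.15 for mimic against negative control and 0.11 ± 0.15 for mimic against mock. The pseudogene UQCRBP1 read 3.43 to 4.00, with 0.36 ± 0.14 for mimic against negative control (limma adjusted p = 0.391 over all features).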
